A study of Mus musculus with 11 samples.

Results

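The untreated state of mouse leukaemic progenitors transformed by MLL-AF9 was described from the 4 arrays collected at 0 h, out of 11 arrays in the series; the other arrays, 4 at 48 h and 3 at 96 h after 4-hydroxytamoxifen, were not compared with them. The 4 arrays were chosen by their titles alone, which state 0 h. Each carries total RNA of C57BL/6 cells of the genotype Jmjd2a/b/c f/f;Rosa26::CreERT2, in which Kdm4a, Kdm4b and Kdm4c (Jmjd2a, Jmjd2b and Jmjd2c) are floxed and a tamoxifen-dependent Cre is expressed from the Rosa26 locus. No tamoxifen had been given, so the floxed alleles had not been exposed to the drug. The cells grew in RPMI medium with 20% fetal bovine serum and IL-3 at 10 ng/ml. The series describes 4 cell lines taken from leukaemic mice, and the arrays are numbered replicate 1 to 4. No label ties an array to a line or says whether a line is clonal, and each culture was hybridised once, so a difference between cultures cannot be told apart from a difference between arrays.

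MLL-AF9 joins the DNA-binding end of the histone methyltransferase MLL to AF9, a partner that recruits the transcription elongation machinery and Dot1l. In granulocyte-macrophage progenitors the fusion is known to keep the late Hoxa genes and their cofactor Meis1 switched on, which sustains self-renewal in cells that otherwise would mature into neutrophils and macrophages. IL-3, the cytokine in the medium, signals through a private receptor chain, Il3ra, and a common beta chain shared with the receptors of GM-CSF and IL-5.

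A level is the log2 processed Cy3 signal of a gene's probe less the 75th percentile of log2 signal over the non-control spots of the same array, so 0 marks a spot at that percentile. A difference of 1 between cultures is 2-fold in signal. A probe's brightness depends on its sequence as well as on the amount of RNA, so ranks between genes order probes and not molecules. A gene counted as measured above background where the scanner software marked its probe well above background. Of 20972 genes with a symbol, 13065 (62.3%) were well above background on all 4 arrays, 5816 (27.7%) were so on none and 2091 on 1 to 3. The 4 arrays lay on 1 slide, had no saturated spot, and had 51.9% to 58.4% of non-control spots well above background, lowest on replicate 3.

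The markers of the transformed progenitor were measured in every culture. Meis1, the homeodomain cofactor of Hoxa9, had levels of 5.26, 4.96, 5.22 and 5.21 on replicates 1 to 4. Hoxa9, the main homeobox target of MLL fusions, stood at 2.25, 1.63, 1.78 and 1.62. Il3ra, the IL-3-specific receptor chain, gave 5.37, 5.33, 5.51 and 5.43. Being measured on all 4 arrays also held for 62.3% of all genes, so it does not by itself identify the cells. No other cell type was compared. Ranked by mean signal among 20972 genes, Il3ra was at percentile 95.2, Meis1 at 94.3 and Hoxa9 at 73.8. The standard deviation (SD) over the 4 cultures was highest for Hoxa9, at 0.293.

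Of the 28 genes of the MLL-AF9 and Hoxa list, 25 were well above background on all 4 arrays, against 62.3% of all genes, and the median level was 1.43. The Hoxa genes were measured from Hoxa3 to Hoxa11. Hoxa7 was the brightest of them, at 5.01, 4.90, 4.91 and 5.08, while Hoxa4 was the dimmest, between -2.45 and -2.14. Eya1, a developmental transcription coactivator, stood at 5.03 to 5.42. The transcription factors Myb (5.82 to 6.22) and Lmo2 (6.33 to 6.59) and the Hox cofactor Pbx3 (4.04 to 4.58) were also bright. Of the cofactors that MLL fusions use, Men1, which encodes menin, was at 3.41 to 3.69, Psip1 at 1.11 to 1.64 and the H3K79 methyltransferase Dot1l at 1.59 to 1.74. The 3 genes of the list not measured on all arrays were Mecom, on 2 arrays, and Mef2c and Mllt3, the mouse AF9 gene, on 1 array each. Among the 25 genes measured on all arrays, the highest SD was 0.385. Mef2c varied more, at -1.93, -5.40, -6.43 and -6.78, mostly near the dim end of the scale.

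The receptors of GM-CSF, G-CSF and M-CSF were well above background in every culture. Csf2ra, the GM-CSF-specific chain, gave 6.05, 5.89, 5.63 and 5.72, and the common beta chain Csf2rb gave 5.61, 5.06, 5.03 and 5.35. Csf3r, the G-CSF receptor, was at 6.23, 6.48, 6.41 and 6.44. Csf1r, the M-CSF receptor, was at 3.25, 2.72, 2.15 and 2.44, highest on replicate 1. The receptor of the granulocyte factor varied less than that of the macrophage factor, with SDs of 0.111 and 0.469. Of 38 receptors listed, 32 were well above background on all arrays, against 62.3% of all genes. Those marked on none were Il1r1, Il5ra, Il7r and Pdgfra.

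Surface antigens used to sort such progenitors were mostly measured. Kit, the stem cell factor receptor, gave 2.28, 1.5, 2.04 and 2.30. Cd34, a sialomucin of progenitors, gave 4.61, 4.62, 5.09 and 5.46. Fcgr3, a low-affinity Fc gamma receptor chain, held 3.51, 3.41, 3.54 and 3.52, and Fcgr2b, the inhibitory one, 3.30 to 3.74. These are the antigens that define a granulocyte-macrophage progenitor by flow cytometry, and all were present on every array. Ly6c1 (8.38 to 8.66) and Cd47 (7.49 to 7.86) were the brightest of the 34 surface antigens. Of these, 30 were measured on all arrays, against 62.3% of all genes. Ly6a, which encodes Sca-1 and is low on normal granulocyte-macrophage progenitors, was at -0.12, 1.61, -1.70 and -1.53, highest on replicate 2 and 9.95-fold above the lowest culture.

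Genes of stem and multipotent progenitors were measured about as often as genes in general. Of 27, 18 were well above background on all arrays (66.7%, against 62.3% of all genes) and 8 on none (against 27.7%). Those on none were Slamf1, Procr, Tek, Tal1, Esam, Robo4, Hoxb5 and Mycn. Flt3, a receptor of multipotent and lymphoid-primed progenitors, lay between -1.35 and -0.50. The helix-loop-helix factor Lyl1, at 6.97 to 7.38, was the brightest member of that list.

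Among 33 transcription factors of myeloid fate, 28 were measured on all arrays, against 62.3% of all genes. Cebpe, which drives late granulocyte maturation, stood at 6.90, 6.49, 7.06 and 7.13. Gfi1, a repressor needed for the neutrophil branch, stood at 6.43, 5.94, 6.48 and 6.46. Cebpb was at 5.97 to 6.37, Cebpd at 5.21 to 5.43 and Cebpa, the founder of the granulocyte-macrophage branch, at 2.69 to 3.09. Granulocyte factors were thus bright in all cultures. Irf8, a factor of the monocyte and dendritic branch, was at -0.05 to 1.0 and Spi1, which encodes PU.1, at 0.48 to 0.84. Klf4, another monocyte factor, lay between -3.65 and -2.74, and Ebf1, a B cell factor, was marked on no array.

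The list of granulocyte-monocyte progenitor and primary granule genes was the brightest of the lineage lists. The primary granule is the protease store made at the promyelocyte stage. The list also holds genes outside the granule, such as Cebpa, Cebpe and Gfi1. Its median level was 4.12, at percentile 89.4 of genes. Of its 25 genes, 23 were well above background on all arrays, against 62.3% of all genes. Ctsg, which encodes the granule protease cathepsin G, gave 9.53, 9.52, 9.81 and 9.62 and was the 46th brightest of all genes. Elane, which encodes neutrophil elastase, gave 5.60, 7.73, 6.61 and 6.37, and Prtn3, which encodes proteinase 3, gave 4.29, 5.93, 5.03 and 5.10. Cd63, a granule membrane tetraspanin, was at 8.09 to 8.56, Plac8 at 7.82 to 8.35 and the granule proteoglycan Srgn at 7.87 to 7.99. Mpo, which encodes myeloperoxidase, has 1 probe, which stood at percentile 59.7 and gave -1.55, 1.07, 0.69 and -0.81. Fcnb and Clec5a were marked on no array.

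Mature neutrophil genes were present at a lower median level, 1.48, with 28 of 30 well above background on all arrays, against 62.3% of all genes. S100a9, a calcium-binding protein of neutrophils and monocytes, had a mean level of 6.50 and Ltf, which encodes the secondary granule protein lactoferrin, lay between -3.57 and -1.40. How these genes differed between cultures is described with the spread below. Monocyte and macrophage genes had a median level of -1.67, and 20 of 34 were measured on all arrays, against 62.3% of all genes. Lgals3 (6.87 to 7.85), the integrin chain Itgam (4.28 to 4.73) and Adgre1, which encodes F4/80 (4.73, 3.35, 3.98 and 4.35), were bright. Several genes of tissue macrophages were dim or not above background. Mertk, Mrc1 and Cd163 were marked on no array, and C1qb lay between -1.85 and -1.40.

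Lists of other blood lineages had medians below that of all genes, while the shares of their members measured were not far from the 62.3% of all genes. Those measured on all arrays were 10 of 19 for B cells, 14 of 26 for T and NK cells, 10 of 19 for the erythroid list, 11 of 19 for mast cells and basophils and 6 of 12 for eosinophils. Their median levels lay between -3.77 and -3.50, against -1.78 over all genes. The dendritic cell list had a median of -3.07, with 13 of 22 measured on all arrays, and the megakaryocyte and platelet list -2.32, with 14 of 20. Defining genes of a lineage fell on both sides. Ms4a1 and Rag1 of B cells, Cd3g and Ncr1 of T and NK cells, Hbb-b1 and Alas2 of red cells, Fcer1a and Ms4a2 of mast cells and Epx of eosinophils were marked on no array. Others of the same lineages were well above background on all arrays. For T cells these included Cd3e (2.35 to 2.59) and Cd4 (2.39 to 2.57), with Cd3d and Cd8a dimmer, and for B cells Cd79a (-3.64 to -3.08), Cd79b, Cd22 (-0.71 to -0.56) and Rag2. For red cells they included Hba-a1 (-2.48 to -1.71), Gata1 (-3.54 to -2.33) and Epor. Among the brightest members of these lists were Siglech, a lectin of plasmacytoid dendritic cells, at 7.11, 6.95, 7.09 and 7.20, and Hemgn, a nuclear protein of blood progenitors, at 5.17 to 5.59. H2-Ab1, an MHC class II chain, lay at 4.14 to 4.71 and the erythroid and megakaryocyte factor Nfe2 at 6.21 to 6.70. Lck, a T cell kinase, was at 3.03 to 3.80, while Zap70, the kinase that acts after it, was marked on 3 arrays only.

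Lists for 5 tissues outside the blood had medians below those of the blood lineages. These ran from -5.87 for 15 neuronal genes to -5.12 for 14 epithelial genes, with 5 or 6 members of each of the lists for neuron, liver, muscle, epithelium and germ cells measured on all arrays. Over all genes, 62.3% were measured on all arrays. Alb, Gad1, Epcam and Ttn were marked on no array. Single members stood out even there. Snap25, a synaptic vesicle fusion protein, was at 3.34 to 3.52 and Trp63, an epithelial member of the p53 family, at 2.37 to 2.53. The stromal and endothelial list, with 12 of 22 measured on all arrays, had a median of -3.65, level with the blood lineages. In it, Kdr, a VEGF receptor, was at 4.03 to 4.38 and the leptin receptor Lepr at 3.69 to 4.00, while Col3a1, Cdh5 and Tie1 were marked on no array. Whether these probes read the named transcript was not tested.

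**Figure D1:**
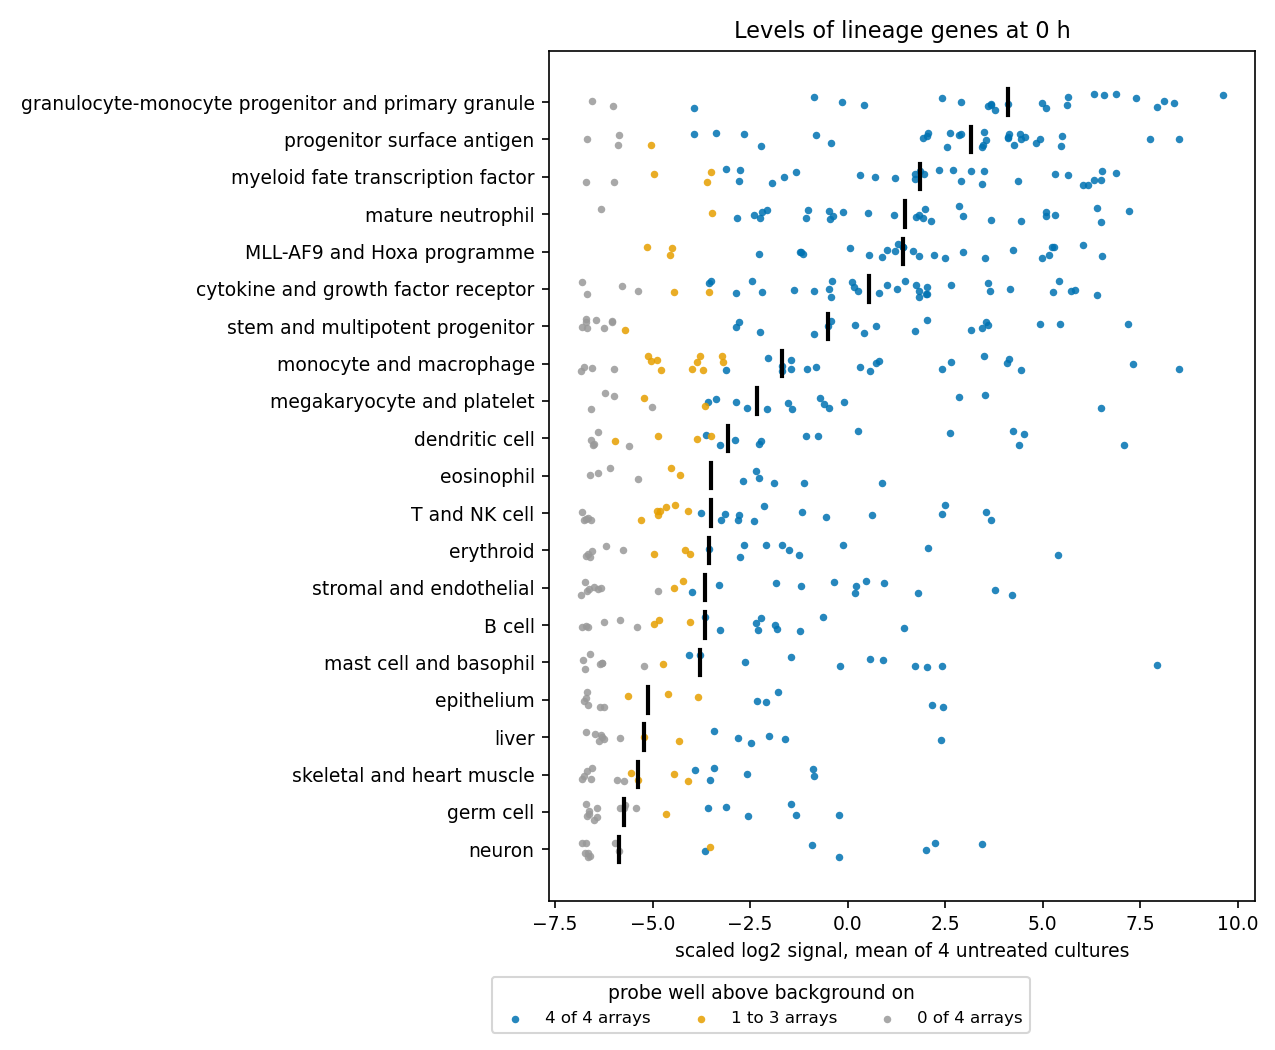
Scaled log2 signal of the genes of 21 lineage lists, each point the mean of the 4 untreated cultures, coloured by the number of arrays on which the probe was well above background; the black bar is the list's median. The list of granulocyte-monocyte progenitor and primary granule genes had the highest median, 4.12, and the neuronal list the lowest, -5.87.

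Chemosensory receptor genes were mostly not above background. Of 1063 olfactory receptor genes, 755 were marked on no array and 145 on all, and of 252 vomeronasal receptors 181 and 30. Of 49 keratins, 21 were marked on none. Over all genes with a symbol, 27.7% were marked on none and 62.3% on all. The olfactory and vomeronasal medians, -6.42 and -6.47, lie near the dim end of the scale. Features without a gene symbol were less often above background, with 7656 of 16011 (47.8%) marked on all arrays.

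The brightest genes were those of translation and chromatin. Fau, which encodes a ubiquitin-like fusion with a protein of the small ribosomal subunit, gave 10.23, 9.98, 10.39 and 10.01, and the ribosomal protein genes Rps14 and Rpl35 were also among the brightest. The 94 genes with symbols beginning Rpl or Rps and a number had a median level of 8.98. They are mostly ribosomal protein genes but include kinase genes, such as Rps6ka2 at -2.57. A second ranking left out ribosomal protein, translation factor, mitochondrially encoded, actin, tubulin and predicted genes. Of its 20 brightest genes, 8 were histone H2A genes, which package newly replicated DNA. H2ac12, the first of them, gave 9.63, 10.18, 10.33 and 9.73; histone H2A genes are near-identical in sequence, and their probes may share RNA. The protein-folding enzyme gene Ppia (9.58 to 9.95), Tpt1, the scaffold gene Rack1 (9.65 to 10.01) and the glycolytic gene Gapdh (9.47 to 9.68) were in the same group.

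Several bright values rested on 1 probe that the gene's other probes did not share. Zfp628, a zinc finger gene, had a mean level of 9.92 on one probe and 1.02 on the other. Kctd14 had 9.84 against -2.60 and -4.43, and Elk1, an ETS factor, had 9.58 against -4.17. Glrx2, a mitochondrial glutaredoxin, had 9.93 against 3.44 and -4.94. Among the 20 brightest genes of the second ranking, such disagreements make the named gene uncertain. Milr1, an inhibitory receptor known from mast cells, was bright on a pair of probes, at 9.68 and 8.04, and lower on the third, at 2.90. Gapdh had 7 probes, with means from 6.15 to 9.58.

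Housekeeping and growth programmes were high in every culture. All 31 glycolysis and hypoxia genes were well above background on 4 arrays (against 62.3% of all genes), among them Ldha (8.94 to 9.14) and Aldoa (9.27 to 9.50). So were all 31 genes of the unfolded protein and integrated stress response, led by Atf4, the master factor of the amino acid response, at 8.82 to 9.13, its target Asns at 7.79 to 8.26 and the feedback inhibitor gene Trib3 at 6.97 to 7.75. Myc was at 3.99, 3.54, 4.16 and 4.09, while its relatives Mycn and Mycl were marked on no array. The nucleolar gene Npm1 was at 8.33 to 8.66. Of 25 p53 targets, 24 were measured on all arrays, with Cdkn1a, the p21 inhibitor, at 2.94 to 3.73, Mdm2, the p53 ligase, at 4.17 to 4.80 and Bax at 5.61 to 5.85. Among survival genes, Mcl1 was at 4.63 to 4.89, Bcl2l1 at 4.52 to 5.10, Bcl2a1d at 5.05 to 6.31 and Bcl2 at 0.51 to 1.04.

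The genes to be deleted later were measured before deletion. Kdm4a, a histone H3K9 and H3K36 demethylase, gave 3.63, 3.54, 3.99 and 3.85. Kdm4b gave 1.55, 1.42, 1.58 and 1.56, and Kdm4c gave 1.05, 0.65, 1.17 and 0.87. The SD of each over cultures was 0.226 or less. Kdm4d, the family member without floxed alleles here, was marked on no array. The Y-linked genes Ddx3y (1.08 to 1.34), Eif2s3y (3.70 to 3.84) and Uty (-3.03 to -2.68) were well above background in all 4 cultures, and Xist, the X-inactivation RNA, on none. Kdm5d and Zfy1 were marked on 1 array each and Usp9y on none.

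Cultures resembled each other closely for most genes. The SD over the 4 cultures had a median of 0.194 among the 13065 genes measured on all arrays, falling from 0.293 for genes under -2 to 0.139 for genes over 6. On 237 probes printed on 10 spots, the SD between spots of an array was 0.072 at the median, and the SD between the 4 arrays of their means was 0.182. The 8 usable spike-in probes had SDs of 0.119 to 0.271, with a median of 0.260. Once their median shift on an array was removed, the SDs were 0.009 to 0.230, with a median of 0.027. The brightest spike-in, at a mean level of 10.19, did not share that shift, and its SD rose from 0.119 to 0.230. Against this, 158 genes (1.21%) had an SD above 1 and 1048 (8.02%) an SD above 0.5. After normexp background correction with quantile normalisation 63 genes, and 60 genes in the table deposited by the authors, had an SD above 1, all of them among the 158. For 718 genes (5.50%) 1 array stood apart from the other 3 by Dixon's 95% limit, which chance passes in about 1 of 20. With 4 arrays and no repeat of a culture, these SDs join differences between lines, growth state and arrays.

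Replicate 1 was the culture most often highest among the genes of widest spread. Of the 158 genes with an SD above 1, it was highest for 89 and lowest for 18, whereas over all measured genes it was highest for 23.4% and lowest for 30.8%. Replicate 2 was highest for 41, replicate 3 for 19 and replicate 4 for 9. By Dixon's limit, which does not depend on the size of the spread, replicate 2 stood apart most often. Of the 718 genes past that limit, it was the high array for 116 and the low array for 202. The same counts were 92 and 85 for replicate 1, 102 and 39 for replicate 3 and 31 and 51 for replicate 4. Leaving out replicate 1 left 118 genes with an SD above 1, of which 91 were among the 158. Of 3216 genes with a second probe, the same culture was highest on both probes for 49.3% and lowest on both for 49.7%. Among the 146 of these with an SD above 0.5, the shares were 73.3% and 65.1%. Only 14 genes with an SD above 1 had a second probe. The same culture was highest on both for 10 of the 14 and lowest on both for 7. No chromosome stood apart, since the largest shift of a chromosome's median in any culture was 0.041 over 20 chromosomes.

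**Figure D2:**
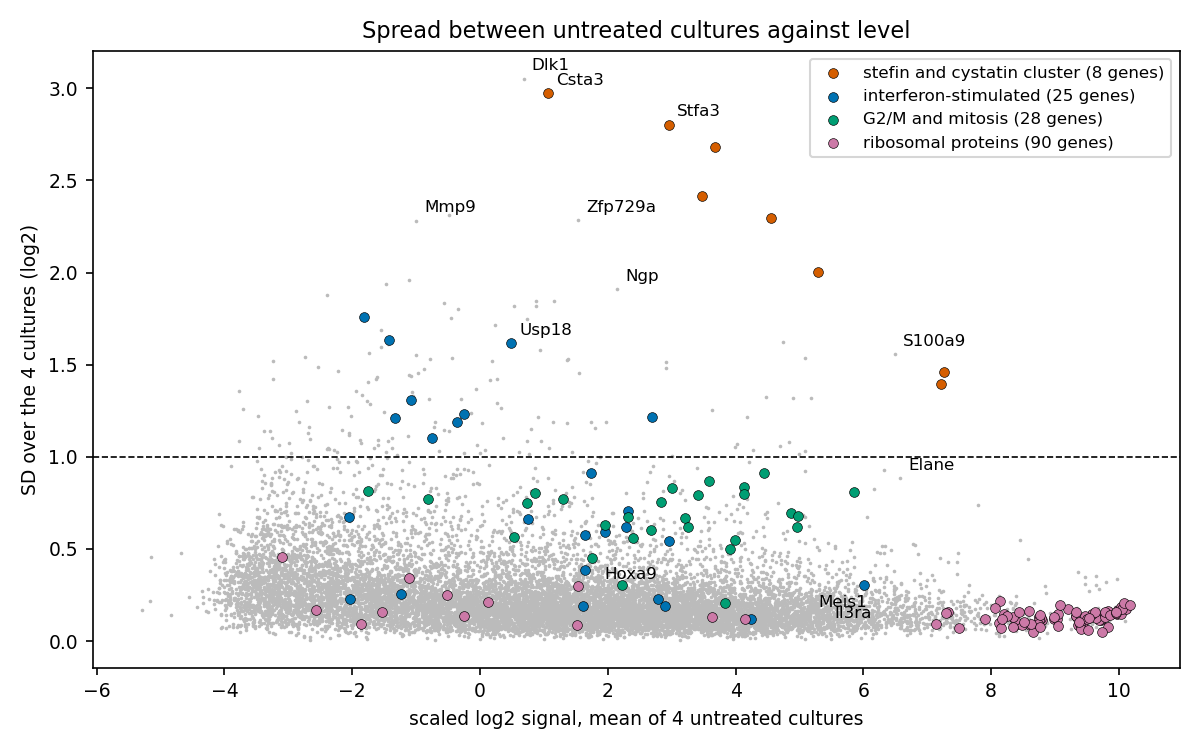
SD over the 4 cultures against mean scaled log2 signal for the genes well above background on all 4 arrays, 1 grey point per gene, with stefin, interferon-stimulated, mitotic and ribosomal protein genes coloured; the dashed line marks an SD of 1. The stefin genes stand above the line at levels where most genes have an SD near 0.17. The ribosomal group is the list of symbols beginning Rpl or Rps, kinase genes included.

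The neutrophil programme differed between cultures by the widest distance as scaled here. Of its 28 genes measured on all arrays, 16 had an SD above 1, against 1.21% of all genes, and 21 were highest on replicate 1, against 23.4%. The median deviation of the list from each gene's own mean was 1.22 on replicate 1, 0.22 on replicate 2, -0.95 on replicate 3 and -0.69 on replicate 4. Replicate 1 thus lay above, and replicates 3 and 4 below, with 2.17 between the highest and lowest culture. Without replicate 1 that distance was 1.1, and it was 1.30 after normexp background correction with quantile normalisation, below the 1.35 of mitotic genes under that setting. In RNA of whole cultures, more cells of a mature kind and more RNA of these genes per cell cannot be told apart.

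S100a8 and S100a9, whose proteins form calprotectin, moved together. S100a8 gave 7.05, 5.54, 3.96 and 3.76, and S100a9 gave 8.57, 6.79, 5.45 and 5.16. Both were highest on replicate 1 and next on replicate 2, with ranges of 9.76-fold and 10.7-fold. Ngp, a secondary granule protein of the cathelicidin family, gave 4.79, 2.30, 0.83 and 0.68, a 17.4-fold range. Mmp9, the gelatinase of tertiary granules, gave 2.34, -1.44, -2.59 and -2.32, so replicate 1 stood alone. Lcn2, an iron-siderophore binding protein, gave 6.40, 4.84, 3.90 and 5.22.

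Part of the list did not follow this order. Csf3r, Cebpd and Pglyrp1, a peptidoglycan recognition protein, had SDs of 0.111, 0.109 and 0.163. Wfdc21 was high on replicate 2 alone, at -0.39, 3.26, -0.34 and -0.41. Chil3, a chitinase-like lectin, was also highest on replicate 2, at 1.30, 3.51, 0.83 and 2.26. Camp, which encodes cathelicidin, gave 2.06, 3.09, 1.11 and 1.03.

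The widest differences were in the stefins, small cytosolic inhibitors of cysteine proteases encoded in a cluster of near-identical genes on chromosome 16. Csta3 gave 5.43, 0.03, -1.24 and 0.04, a 102-fold range. Stfa3 gave 6.99, 2.14, 0.52 and 2.15, an 88.8-fold range. Stfa2 gave 7.63, 2.99, 2.19 and 1.88. All 8 measured stefin genes were highest on replicate 1 and, apart from Stfa2, lowest on replicate 3. Stfa1 (9.19, 6.33, 6.16 and 7.18) and Cstdc5 (9.34, 6.52, 6.03 and 7.15) stayed bright in every culture, while Stfa2l1, Csta2 and Cstdc4 had ranges of 45.7-fold, 40.3-fold and 24.0-fold. Of the 11 genes with an SD above 2, 6 were stefins. Probes for such close paralogs can bind each other's RNA, so the 8 genes are not independent. Cstdc6 was marked on 1 array and Csta1 on none.

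The stretch of 250 bases upstream of the annotated start is shown for a stefin that was bright in every culture, for the pair of stefins with the widest ranges and for Ngp, since these genes were highest together on replicate 1. Sequences are from RefSeq, build GRCm38.p6, 5′ to 3′ on the gene's strand, and capitals mark TTGCNNAA or its reverse complement TTNNGCAA, the core bound by C/EBP factors.
Stfa1 (chr16:36276898-36277147, plus strand): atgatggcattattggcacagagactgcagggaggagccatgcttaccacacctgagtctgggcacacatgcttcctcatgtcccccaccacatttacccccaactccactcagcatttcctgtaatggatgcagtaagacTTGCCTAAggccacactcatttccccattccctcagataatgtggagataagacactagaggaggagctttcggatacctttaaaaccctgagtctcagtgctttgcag
Csta3 (chr16:36210153-36210402, plus strand): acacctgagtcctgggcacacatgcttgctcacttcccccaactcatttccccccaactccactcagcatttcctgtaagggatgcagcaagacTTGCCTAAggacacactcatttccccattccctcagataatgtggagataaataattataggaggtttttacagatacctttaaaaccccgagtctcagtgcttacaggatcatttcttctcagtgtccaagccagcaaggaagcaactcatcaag
Stfa3 (chr16:36455393-36455642, minus strand): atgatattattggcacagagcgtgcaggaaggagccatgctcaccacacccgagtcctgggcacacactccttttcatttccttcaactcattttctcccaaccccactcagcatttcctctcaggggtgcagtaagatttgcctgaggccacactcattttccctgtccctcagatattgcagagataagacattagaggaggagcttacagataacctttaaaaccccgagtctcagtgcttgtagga
Ngp (chr9:110419558-110419807, plus strand): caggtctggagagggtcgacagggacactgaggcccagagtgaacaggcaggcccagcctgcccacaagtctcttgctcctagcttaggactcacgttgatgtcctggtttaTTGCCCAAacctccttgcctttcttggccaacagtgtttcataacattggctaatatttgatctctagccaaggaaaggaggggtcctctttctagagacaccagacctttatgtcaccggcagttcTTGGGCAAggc

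Positions count back from the start, with -1 the base before it. The C/EBP core was found in 3142 of 32851 RefSeq promoters of this length (9.56%). Here and below, shares over all promoters count each annotated start. Counts within a list are of genes, and a gene with several starts counted if any start matched. This can raise the list shares, and its size was not tested. Among the stefins it was in 3 of 8, always as TTGCCTAA, starting at -109 in Stfa1, -156 in Csta3 and -88 in Cstdc5. Stfa3 had no match in this window. Ngp had 2 matches, the first starting at -138 and the last at -11. In the neutrophil list 8 of 26 genes with a promoter (30.8%) held the core. The 28 pairs of stefin promoters were 45.3% to 89.4% identical, with a median of 66.9%. None of the matches printed here overlapped a match to another motif searched. A match of letters is a description of the window and not a bound site.

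Interferon-stimulated genes also differed between cultures. These genes are switched on by STAT and IRF factors after interferon or nucleic acid sensing. Of 25 measured on all arrays, 9 had an SD above 1, against 1.21% of all genes. Replicate 1 was highest for 17, against 23.4% of all genes, and replicate 4 was lowest for 21, against 19.5%. The median deviations were 0.78, 0.26, -0.42 and -0.70 on replicates 1 to 4. Their distance of 1.48 between the highest and lowest culture became 0.827 without replicate 1.

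Isg15, a ubiquitin-like modifier, gave 4.15, 3.25, 1.80 and 1.60. Usp18, the protease that removes it, gave 2.30, 1.28, -0.30 and -1.33, a 12.4-fold range. Irf7, the factor that amplifies the interferon response, gave 0.36, -0.34, -1.99 and -2.38. In all of these, replicates 1 and 2 lay above replicates 3 and 4. Rsad2, which encodes viperin, gave 0.20, -0.90, -3.36 and -3.24, and Oasl1 gave 0.46, -0.60, -2.62 and -2.96. The chemokine gene Cxcl10 gave 0.35, -0.11, -1.12 and -2.13. Outside the list, Rtp4 had the same order, at 3.38, 1.81, 0.34 and -0.89. Other members varied little: Stat2 lay at 1.43 to 1.86, Irf1 at 2.63 to 3.07 and Bst2, which encodes tetherin, at 4.07 to 4.34. Ifit1, Ifit3 and Oasl2 were each marked on 2 arrays.

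The promoters of Isg15 and Rsad2, both among the 9 members with an SD above 1, are printed next. Capitals mark GAAA, any 2 bases and GAAA again, or the reverse complement (TTTC, any 2 bases, TTTC), the core of the interferon-stimulated response element.
Isg15 (chr4:156200819-156201068, minus strand): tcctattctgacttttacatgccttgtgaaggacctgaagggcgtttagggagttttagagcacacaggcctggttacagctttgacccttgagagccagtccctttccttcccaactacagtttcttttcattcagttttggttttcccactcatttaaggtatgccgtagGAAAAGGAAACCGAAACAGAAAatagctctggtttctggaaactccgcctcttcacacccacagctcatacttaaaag
Rsad2 (chr12:26456453-26456702, minus strand): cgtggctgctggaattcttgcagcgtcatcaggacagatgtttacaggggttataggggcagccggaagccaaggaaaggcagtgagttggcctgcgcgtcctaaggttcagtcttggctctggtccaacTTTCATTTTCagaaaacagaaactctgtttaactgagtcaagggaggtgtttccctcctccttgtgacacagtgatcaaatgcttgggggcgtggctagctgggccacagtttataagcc

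Isg15 held 3 matches that overlap one another, starting between -78 and -66, and Rsad2 held 1 on the opposite strand, at -120. The core was present in 12 of 24 genes of the interferon list with a promoter (50%), at any of their starts. Over all starts it was in 978 of 32851 promoters (2.98%). In the G2/M list it was in 1 of 25.

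Cytokine, chemokine and immediate early genes were also highest on replicate 1. Of 33 cytokine and NF-kB genes, 19 were measured on all arrays, against 62.3% of all genes. Of these 19, 7 had an SD above 1, against 1.21% of all genes. Replicate 1 was highest for 15 (12 to 15 under the other scalings), against 23.4% of all genes. Ccl6, a chemokine of myeloid cells, gave 7.14, 3.81, 3.69 and 4.36, an 11-fold range. Ccl4, which encodes MIP-1 beta, gave 3.23, 1.28, -0.52 and 1.52. Ccl3 gave 2.86, 1.43, -0.02 and 1.20. Replicate 3 was lowest for each of these. Cxcl3, a neutrophil-attracting chemokine, was marked on 2 arrays only and gave 2.12, -5.32, -4.85 and -2.27. Il1a, Il10, Csf2, Csf3, Ccl22 and Cxcl1 were marked on no array, and Il3, the cytokine supplied in the medium, on 1.

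Of 27 immediate early and AP-1 genes measured on all arrays, 21 were highest on replicate 1 (16 to 23 under the other scalings), against 23.4% of all genes. Egr1, an early response factor, gave -0.20, -2.14, -3.52 and -1.89. Dusp6, a phosphatase induced by ERK signalling, gave 3.96, 2.25, 2.53 and 2.78. Jun was highest on replicate 4, at 2.99, 3.19, 3.11 and 3.98.

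Mitotic genes ran the other way. Of 28 measured on all arrays, 25 had an SD above 0.5, against 8.02% of all genes, although none had an SD above 1. Replicate 2 was highest for 25 of them, against 3270 of 13065 over all genes, and replicate 1 was lowest for 27, against 30.8%. The median deviations were -0.90, 0.64, 0.37 and -0.13, a distance of 1.54 that became 0.793 without replicate 1. Each replicate 1 value below was the lowest of its gene.

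Plk1, the kinase that drives mitotic entry, gave 3.19, 5.32, 4.83 and 4.44, a 4.38-fold range. Ccnb1, which encodes cyclin B1, gave 2.98, 4.90, 4.55 and 4.12. Mki67, the proliferation marker Ki-67, gave 2.56, 4.67, 3.69 and 3.41. Birc5, which encodes survivin, gave 4.78, 6.52, 6.42 and 5.69. Replicate 2 led in all of these, followed by replicates 3 and 4. Pttg1, which encodes securin, was the steadiest, with an SD of 0.205. Aurkb and Cenpf were marked on 1 array each.

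Replication genes differed less, with a distance of 0.654 between cultures that became 0.297 without replicate 1. Replicate 1 was lowest for 26 of 29, while replicate 3, not replicate 2, was highest for 21, against 33.8% of all genes. Mcm7, a subunit of the replicative helicase, gave 5.31, 6.03, 6.25 and 5.82, and the ribonucleotide reductase gene Rrm1 gave 4.16, 5.15, 5.04 and 4.43. Most histone genes were highest on replicate 2 and lowest on replicate 1, as the mitotic genes were. Of 44, 28 were highest on replicate 2, against 25% of all genes, and 32 lowest on replicate 1, against 30.8%. The histone H2A genes among the brightest genes were instead highest on replicate 3, such as H2ac12 at 9.63, 10.18, 10.33 and 9.73. H1f5, a linker histone, gave 4.12, 6.15, 5.51 and 4.55, and the histone H4 gene H4c14 gave 7.76, 8.90, 8.88 and 8.26.

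The promoter of Plk1 is shown as the mitotic gene of widest range, with capitals marking CCAAT or its reverse complement ATTGG, the box bound by NF-Y.
Plk1 (chr7:122159185-122159434, plus strand): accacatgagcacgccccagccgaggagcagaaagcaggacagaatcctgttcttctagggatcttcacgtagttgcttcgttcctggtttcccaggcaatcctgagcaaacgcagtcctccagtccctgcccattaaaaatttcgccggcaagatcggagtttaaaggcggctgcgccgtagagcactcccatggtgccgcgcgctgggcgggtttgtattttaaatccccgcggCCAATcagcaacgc

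Its 1 match starts at -14. The CCAAT box was in 21 of 25 genes of the G2/M list (84.0%) and in 33.8% of all promoters. It was in 23 of 72 genes with symbols beginning Rpl or Rps (31.9%). The letters TTTGAA or TTCAAA, the core of the cell cycle homology region, were in 8 of 25 (32.0%) and in 16.0% of all.

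Cholesterol synthesis was high on replicate 2. Of 31 genes measured on all arrays, 29 were highest there (26 to 29 under the other scalings), against 25% of all genes, and 14 had an SD above 0.5, against 8.02%. The median deviations were -0.27, 0.60, 0.00 and -0.30. The lowest culture was replicate 4 as scaled here and replicate 1 with the array median as reference, after normexp with quantile normalisation and in the authors' deposited table. The distance of 0.897 between cultures became 0.332 without replicate 2, so it rested on that culture.

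The steps of the mevalonate pathway moved together. Mvk, mevalonate kinase, gave 3.30, 4.97, 4.32 and 3.63. Fdps, which makes farnesyl diphosphate, gave 5.29, 7.40, 6.74 and 5.87, a 4.31-fold range. Fdft1, the first step committed to sterols, gave 1.14, 2.62, 1.28 and 0.87. Nsdhl, a later sterol dehydrogenase, gave -0.60, 1.17, -0.10 and -0.69. Replicate 2 was above every other culture in these genes, and replicate 3 was next. Insig1, the sterol-regulated retention protein, gave -1.47, -0.20, -1.38 and -1.78. Sqle, squalene epoxidase, did not follow and held 4.84, 4.85, 4.78 and 4.74. Abcg1, a cholesterol exporter, was lowest on replicate 2, at 1.98, 1.16, 2.74 and 2.48.

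The Mvk promoter is shown with the same letters in capitals, since it holds the CCAAT box 5 times.
Mvk (chr5:114444019-114444268, plus strand): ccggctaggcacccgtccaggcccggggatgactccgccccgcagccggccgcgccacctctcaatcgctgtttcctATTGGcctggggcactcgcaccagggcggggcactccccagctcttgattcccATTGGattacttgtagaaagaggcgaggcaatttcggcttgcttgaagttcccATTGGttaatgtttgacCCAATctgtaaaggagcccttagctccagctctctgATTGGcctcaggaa

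The first match starts at -173 and the last at -14. The box was in 17 of 22 genes of the list with a promoter (77.3%). The sterol regulatory element, searched as TCACNCCAC or GTGGNGTGA, was in 1 of 22 and in 1.05% of all promoters.

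**Figure D3:**
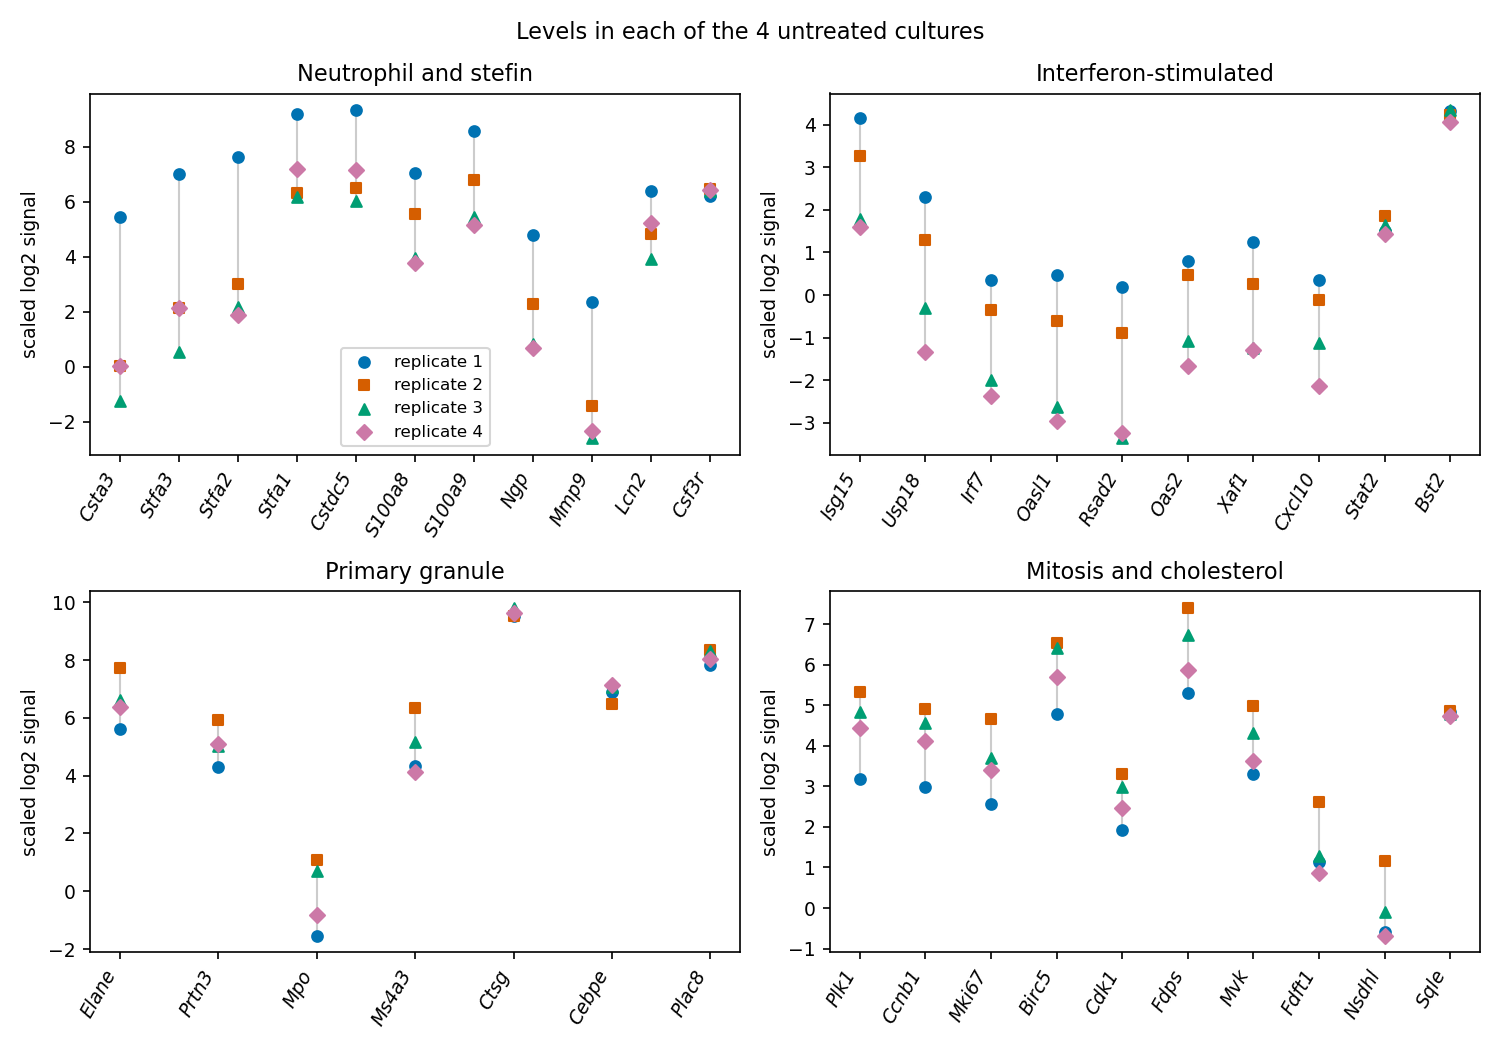
Scaled log2 signal of selected neutrophil, interferon, primary granule, mitotic and cholesterol genes on each of the 4 arrays, with 1 symbol per replicate and a grey line from the lowest to the highest. Replicate 1 (blue circles) is highest for the stefins and most interferon genes, replicate 2 (orange squares) for the mitotic and cholesterol genes, and Csf3r, Bst2, Ctsg and Sqle differ little.

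Genes of the granulocyte-monocyte progenitor and primary granule list sided with replicate 2 and not with the neutrophil genes of replicate 1. Of 23 measured on all arrays, 13 were highest on replicate 2 (11 to 14 under the other scalings), against 25% of all genes, and 11 lowest on replicate 1, against 30.8%. Elane, Prtn3 and Mpo, whose values are given above, were each lowest on replicate 1 and highest on replicate 2, over 4.39-fold, 3.12-fold and 6.14-fold. Ms4a3, a membrane protein of granulocyte-monocyte progenitors, gave 4.34, 6.35, 5.18 and 4.12. The granule genes Ctsg, Srgn and Cd63 did not share the pattern, with SDs of 0.135, 0.058 and 0.209.

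Single genes of other lineages also varied. Itgax, which encodes CD11c, gave -0.03, -2.91, -3.00 and -2.97, and Cd74, the MHC class II invariant chain, 0.52, -0.49, -2.55 and -1.73. Both were highest on replicate 1. Cpa3, a mast cell carboxypeptidase, gave -0.69, 0.62, 1.63 and 2.04, and Cd79b, a B cell receptor chain, 0.23, 1.56, 1.91 and 2.07. These were lowest on replicate 1. Prg2, an eosinophil granule protein, gave 1.75, -2.53, -2.22 and -1.45, while Epx of the same granule was marked on no array. Ppbp, a platelet chemokine, gave 2.43, -1.51, -2.97 and 0.12. Other genes among the 25 of highest SD were AA467197, at 2.33, -0.16, -3.07 and -2.03, Spp1, which encodes osteopontin and was 1.34 on replicate 1 and -2.90 to -1.68 elsewhere, and Serpinb2, at 2.80, -0.69, -0.75 and -0.44. The part that mature cells mixed into a culture have in these values was not tested.

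Some of the widest differences lay in replicates other than the first. Dlk1, an imprinted Notch-like ligand, had the highest SD of all measured genes, at 1.19, 4.80, -1.46 and -1.80, a 96.9-fold range. Its second probe gave the same order, at -1.95, 1.99, -4.26 and -5.29. Mirg, a noncoding RNA of the same imprinted domain, was also highest on replicate 2, at -3.22, -1.04, -3.44 and -3.80. Tcf4, an E protein of plasmacytoid dendritic cells, gave 0.35, 2.24, -0.53 and -0.98. Fn1, fibronectin, was low on replicate 3 alone, at 0.47, 0.92, -3.01 and 0.24. Col4a1, a basement membrane collagen, was low on replicate 2 alone, at 2.24, -1.75, 1.07 and 1.94, and Tenm4 had nearly that order, at 2.80, -1.26, 0.02 and 1.97, which its second probe, at -1.89 to -1.41, did not share.

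Some probes were bright on a single array. Zfp729a gave 0.27, 0.38, 4.95 and 0.51, with no such rise on its other probes. Gm4922 gave 7.67 on replicate 3 and between -5.09 and -4.52 on the others. Brs3 and Cfap52 were likewise marked on replicate 3 alone, Kiss1, Figla, Mettl11b and Trabd2b on replicate 1 alone and Cpn2 on replicate 4 alone. Of 930 genes marked on exactly 1 array, 59 were more than 4 above their median array, of which 28 were on replicate 1, 27 on replicate 3, 3 on replicate 4 and 1 on replicate 2. The gene Lat, a T cell adaptor, was 2.13 on replicate 3 and between -1.95 and -0.95 on the others. Each such value comes from 1 spot of 1 array and has no repeat.

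At the other end, Dcaf12, a substrate receptor of a ubiquitin ligase, had levels of 3.13, 3.13, 3.12 and 3.11 and an SD of 0.0072. The next steadiest among the brighter genes were Tmem50a, Kri1, Pura, Gins3, Ppp6c, Eif2b2, Pin4, Ubb and Plbd2, with SDs of 0.0108 to 0.0193. With the array median as reference the SD of Dcaf12 was 0.098 and that of Gins3 0.109, so their order at this precision is set by the scaling.

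The arrays lay in both rows of the slide, replicates 1 and 3 in row 2 and replicates 2 and 4 in row 1. With limma and Benjamini-Hochberg adjustment over 13065 genes, 0 genes were called between the rows. By limma, 234 (1.79%) had an unadjusted p under 0.05. Each row held 2 arrays of different cultures, too few to show that the rows were alike. Without replicate 3, 2 genes were called, with a smallest adjusted p of 0.0449 by limma.

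**Figure D4:**
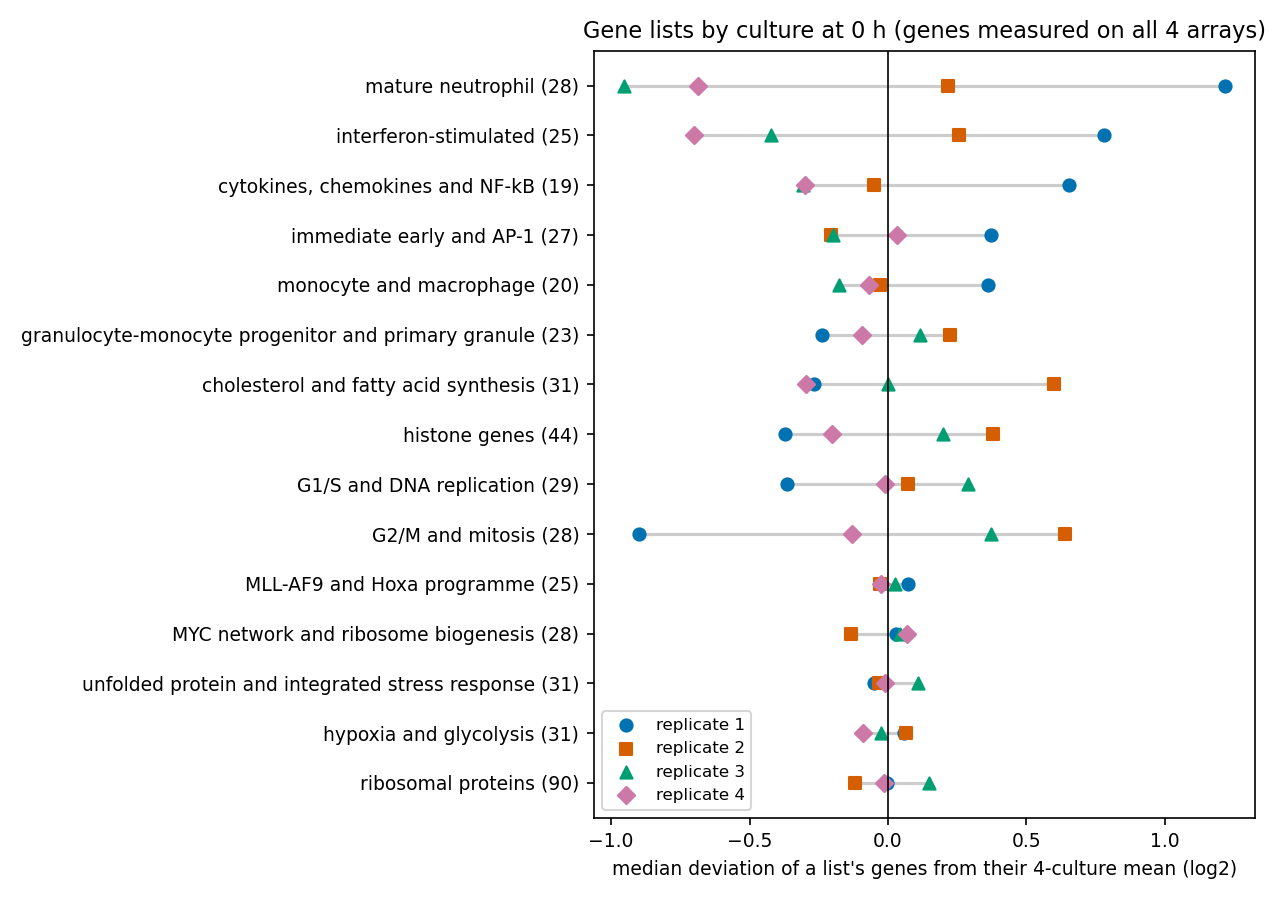
Median deviation of each list's genes from their 4-culture mean, in log2 units, for each of the 4 cultures; the number of genes is in brackets and the grey line joins the lowest and highest culture. Neutrophil genes span 2.17, mitotic genes 1.54 and interferon genes 1.48, while the MLL-AF9 and Hoxa list spans 0.103.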

How the data were processed

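RNA of 4 untreated cultures was measured on 1-colour (Cy3) Agilent arrays of 1 slide. Per the file headers, spot intensity was background-subtracted by Agilent Feature Extraction 11.0.1.1 and deposited as a processed signal with flags for control, outlier, saturated and well-above-background spots. A log2 table also deposited by the authors matched (r = 0.99995 per array) normexp with an offset of 50 followed by quantile normalisation. Its column medians were 6.18 to 6.19; the submitters' processing notes name limma, without settings.

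Levels are log2 processed signal less the 75th percentile of the array, taken without control spots. Outlier spots (125 to 194 per array) were dropped, spots of a probe averaged, and each gene read from its brightest probe. Of 55681 probes, 27656 had 1 symbol and 28025 none. Spread is the SD over the 4 cultures. Rows of the slide were compared with limma 3.58.1 (R 4.3.3), after a test of the script on simulated data. That test reads the spread between these 4 samples only.

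Genes were named by rank. They were the 20 brightest, with and without the gene groups left out of the second ranking, and the 25 of highest SD. Added to them were 10 of highest SD among probes marked on 1 to 3 arrays and 10 of lowest SD above the 80th percentile of level. Members of 40 lists were also named. Some of these genes are not reported here. Members and lists were chosen with earlier results of these data known. Alternatives were other scalings, background corrections, probe rules and filters, and each array left out. Promoters came from RefSeq, GRCm38.p6. The number of arrays limits the precision.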

Additional observations from a re-analysis of the deposited data

Results flagged for a closer look

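For each of the 243 named genes that the arrays measure, the 40 lists and 3 measures of array quality, the gap between the highest or lowest array and its neighbour was divided by the range over the 4 arrays. The 95% limit of Dixon's test for 4 values was passed by 17 genes and 2 lists. Chance passes about 1 in 20 such groups, and it was passed by 718 of the 13065 genes measured on all arrays (5.50%). That rate does not apply to genes named for a high SD, which were picked for a wide spread. These were Gm4922, Brs3, Cfap52, Figla, Mettl11b, Trabd2b, Cpn2, Serpinb2, Wfdc21 and Zfp729a. Itgax had the highest SD of the dendritic cell genes measured on all arrays, so the rate does not apply to it either. Genes high on replicate 1 alone were Itgax (0.972), Serpinb2 (0.914), Figla (0.909), Trabd2b (0.908) and Mettl11b (0.886). Replicate 3 alone was high for Gm4922 (0.955), Zfp729a (0.95), Cfap52 (0.943) and Brs3 (0.906). Cpn2 (0.894) was high on replicate 4 alone. Wfdc21 (0.98) and Lepr (0.934) were high on replicate 2 alone.

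Replicate 2 was the low array for Gfi1 (0.907), Col3a1 (0.868), Lmo2 (0.862), Cd47 (0.851) and Meis1 (0.84), of which Col3a1 was marked above background on no array. Meis1 lay at 4.96 there and between 5.21 and 5.26 elsewhere, and Gfi1 at 5.94 against 6.43 to 6.48. The list of myeloid fate transcription factors had the same form, with a median deviation of -0.21 on replicate 2 and 0.07 to 0.08 on the others (0.971). The stromal and endothelial list deviated by 0.14 on replicate 1 and by -0.06 to -0.03 on the others (0.847), but by -0.01 on replicate 1 with the array median as reference. No array measure passed the limit. The cause of these differences was not tested.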

How the results depend on the processing

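With the array median as reference, the highest culture became the lowest, or the reverse, for 6 of 40 lists, each with at most 0.193 between cultures. One was the MLL-AF9 and Hoxa list, whose replicate 1 went from 0.07 to -0.07. The imprinted list also did so after normexp and in the deposited table. The number of genes with an SD above 1 was 158; it was 63 after normexp with quantile normalisation and 60 in the authors' deposited table. It was 794 with probes well above background on at least 1 array and 940 with no filter on dim probes. It ranged from 118 (without replicate 1) to 210 (without replicate 4) when an array was left out. The count of genes marked on no array was 5816 and fell to 2443 with the scanner's positive-and-significant flag; it was 5944 to 6224 with an array left out, and the count marked on all was 13093 to 13498. With an array left out, the distance between the highest and lowest culture was 1.1 to 2.00 for neutrophil genes, 0.793 to 1.55 for mitotic genes, 0.827 to 1.42 for interferon genes and 0.332 to 0.917 for cholesterol genes; the lowest came without replicate 1, except for cholesterol genes, without replicate 2. The limma comparison of slide rows called 0 to 2 genes, the 2 without replicate 3, with the lone array of row 2 assumed to vary like the others. The cause was not tested. Under the other settings 246 of 1345 percentile ranks of named genes moved by more than the spread between arrays, 126 of them when the probes of a gene were averaged, and 51 of 1345 SDs moved by more than their own size. With the array median as reference, replicate 1 shifted by -0.147 over all genes. No paired analysis was possible because the untreated arrays were compared with no other group. The settings that leave an array out of the slide-row comparison were chosen after seeing the data.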
